A study of Mus musculus with 24 samples.

Results

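Livers of mice fed ethanol for 8 weeks with repeated ethanol binges were compared with livers of mice pair-fed for 8 weeks. The samples were chosen by their titles, which gave 4 multi-binge and 4 pair-fed samples, 8 of the 24 in the series. All mice were C57BL/6N males, and the labels name no genetic change. Pair-fed mice received a control diet in the amount that ethanol-fed mice ate. Multi-binge mice received the ethanol diet for 8 weeks and, 2 times per week, a binge of 5 g of ethanol per kg. Beside some genes, values are given of 5 samples from mice fed ethanol for 8 weeks without a binge. Values of 5 samples from mice fed ethanol for 8 weeks with a single binge of the same dose are given too. Each Agilent 2-colour array carried liver RNA in Cy5 and a reference RNA in Cy3. The reference is named as a commercial RNA of assorted mouse tissues in one field and as liver in another field of the same channel. Separate animals are not named for the replicates, and p-values therefore cover the spread between samples, which may be technical.

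Ethanol is oxidised in hepatocytes by alcohol dehydrogenases and by the cytochrome P450 enzyme encoded by Cyp2e1, which also yields reactive oxygen species. The liver answers electrophiles and metals with glutathione transferases and with metallothioneins, small cysteine-rich proteins that bind zinc and other metals. Chronic intake leads to fat droplets in hepatocytes. Their surface carries perilipins and the protein encoded by Cidec, also called fat-specific protein 27, which fuses small droplets into large ones.

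The multi-binge arrays differed from the 20 other arrays of the series in more than the diet. They were hybridized on 2 slides that held no other group, formed a scan of their own, were read on another scanner and used another version of the array grid, so group and scan cannot be told apart. Median Cy3 signals were 317 to 505 intensity units on the multi-binge arrays and 184.5 to 199 on the pair-fed arrays, while median Cy5 signals were 117.5 to 201 and 131 to 162. Each gene was therefore measured in 3 ways, as the log2 ratio of Cy5 over Cy3, as log2 Cy5 alone and as log2 Cy3 alone. A difference of 1 on any of these scales is a 2-fold difference, and all differences are multi-binge minus pair-fed, with the standard error (SE) of the fit.

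The 4 multi-binge arrays also fell into 2 pairs. Over the 100 genes that varied most within the other groups, the difference between arrays 1 and 3 had an SD of 0.193, against 0.229 over all genes. That between arrays 2 and 4 had an SD of 0.202, against 0.191. The 36 other pairs of arrays of 1 group had SDs of 0.437 to 1.74 over 100 genes chosen in this way for each group, at least 1.79 times the SD over all genes. Of 130 genes that differed over 2-fold between arrays 1 and 2, 127 had the same sign between arrays 3 and 4. Within these 2 pairs the variable genes thus differed about as much as all genes did (ratios of the SDs of 0.84 and 1.06), although the arrays lay on different slides. Each pair was averaged and counted as 1 sample, called sample 1 (arrays 1 and 3) and sample 2 (arrays 2 and 4), so the multi-binge group has n = 2 and not the 4 separate samples that the labels list.

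**Figure D1:**
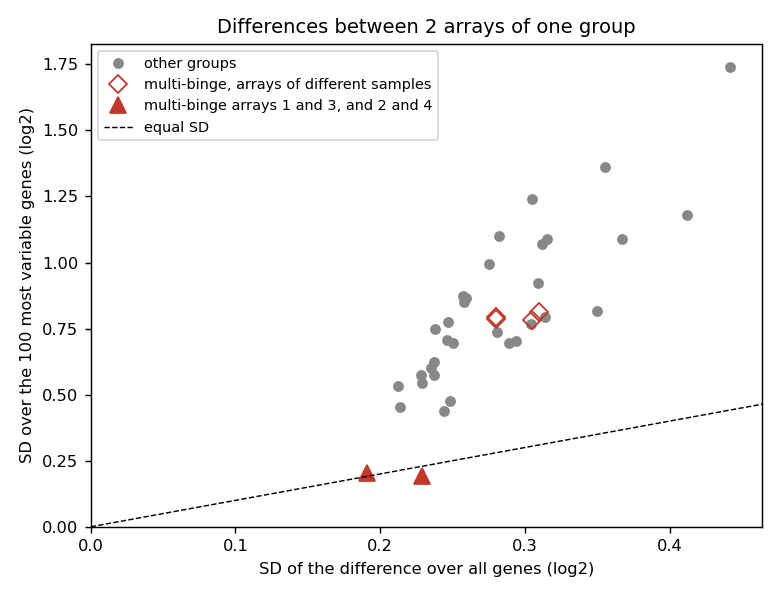
The plot shows, for each pair of arrays of the same group, the SD of the difference in log2 ratio over variable genes against the SD over all genes. The variable genes are the 100 that varied most within the other groups, and a dashed line marks equal SDs. The multi-binge pairs 1 and 3 and 2 and 4 lie at 0.193 and 0.202, below the 36 other pairs, which begin at 0.437.

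Of 17012 genes tested in the ratio, 468 (2.75%) were higher and 1172 (6.89%) lower in the multi-binge livers at an adjusted p under 0.05. Each count of list members below is to be read beside these shares. A single call in a short list is no result about the list. The Cy5 channel alone gave 3306 higher (19.4%) and 3029 lower genes (17.8%). In Cy3 alone, which holds the reference RNA, 3364 genes (19.8%) were higher and 3598 (21.1%) lower. Between groups of the other scan, 0 of 17423 genes differed in Cy3 between ethanol and pair-fed livers and 1 of 17470 between single-binge and pair-fed livers. The differences in Cy5 and in Cy3 followed each other across genes (r = 0.88, where genes share the arrays and are not independent). A difference in Cy5 or in Cy3 alone is therefore not a measure of the livers by itself.

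A stricter count took genes called in the ratio and, with the same sign, in Cy5, but not called in Cy3. It held 117 higher genes (0.688%) and 381 lower genes (2.24%), of which 17 and 112 differed at least 2-fold. Of the 1640 genes called in the ratio, 571 were also called in Cy3, and 280 had a called Cy3 difference of the opposite sign with no call in Cy5. Among the strict calls, 105 of the 381 lower genes (27.6%) but 6 of the 117 higher genes (5.13%) had all multi-binge arrays outside the range of all 20 other arrays. Over all 17012 genes, 513 lay below that range and 108 above it. The part of the scan in this was not tested.

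The calls rest on few samples. Without sample 1, 39 genes were higher and 231 lower in the ratio, and without sample 2, 173 were higher and 226 lower, where the lone sample is assumed to vary like the other groups. Of 85 called genes named here, 20 passed without sample 1, 41 without sample 2 and 11 in both cases, and all kept their direction. A gene with several probes is given by its brightest, where probes measured on 2 or more arrays of every group were taken first. With the mean of the probes of each gene 65 of the 85 passed and 20 did not. Without pair-fed replicate 2 the counts were 206 higher and 559 lower, and without pair-fed replicate 3 they were 228 and 691. The excess of lower over higher calls depends on the scaling. The higher share of the calls was 28.5% here, 47.2% with the scanner software's own ratio (994 higher and 1114 lower) and 47% with the deposited table (1025 and 1157). Centring each array on its median moved the median gene to -0.12, with 704 higher and 1806 lower.

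**Figure D2:**
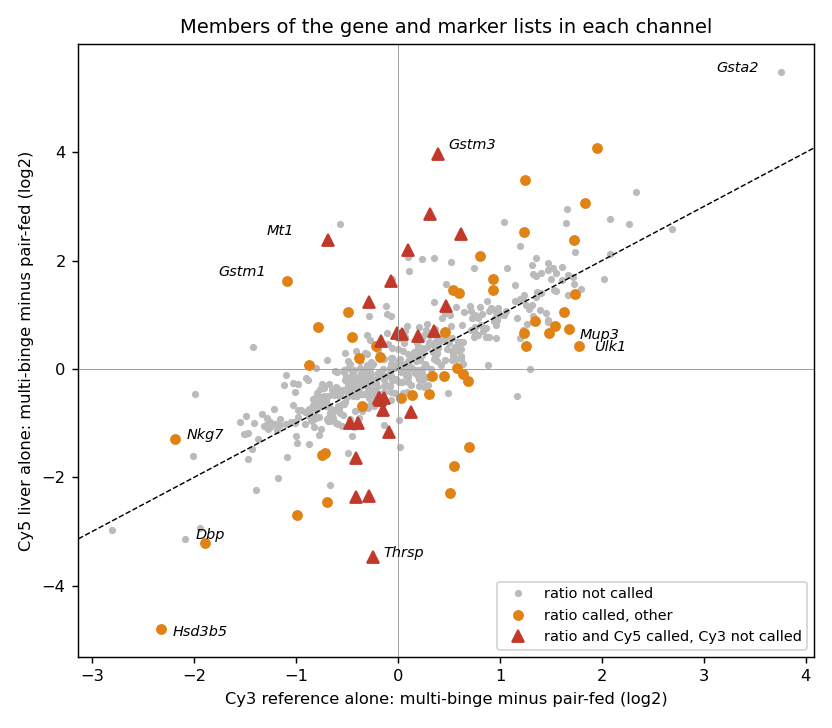
The plot shows, for each member of the gene and marker lists, the difference between multi-binge and pair-fed livers in Cy5 alone (vertical axis, log2) against that in Cy3 alone (horizontal axis, log2), with orange circles for genes called in the ratio and red triangles for those of the strict count. Most genes lie along the dashed line of equal differences, Gsta2 far out above it (5.48 in Cy5 and 3.76 in Cy3), while Mt1, Gstm3 and Thrsp differ mainly in Cy5.

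Mt1 and Mt2 encode the main metallothioneins of the liver. The log2 ratio of Mt1 was -3.97, -2.92, -3.24 and -4.26 on the 4 pair-fed arrays and 1.33, -0.91, 1.33 and -1.08 on multi-binge arrays 1 to 4. All multi-binge arrays lay above all pair-fed arrays, and sample 1 lay above sample 2. Mt1 was 3.77 ± 0.59 (SE, n = 2 and 4) higher, with an adjusted p of 0.00145, and was called in Cy5 (2.38) but not in Cy3 (-0.69, adjusted p = 0.067). Mt2 had ratios of -2.68, -3.19 and -4.07 on the 3 pair-fed arrays where its spot was not marked by the scanner software, and of 1.27, -1.50, 1.39 and -1.78 on the multi-binge arrays. It was 3.16 ± 0.59 higher (SE, n = 2 and 3, adjusted p = 0.00395), 2.86 higher in Cy5 and 0.31 higher in Cy3, which was no call. Mt1 also passed when either multi-binge sample was left out, at 2.61 (adjusted p = 0.0483) without sample 1 and 4.93 (adjusted p = 0.00163) without sample 2. Mt2 passed without sample 2, at 4.64 (adjusted p = 0.000496), and not without sample 1.

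The same arrays give values against the other ethanol groups. Against ethanol for 8 weeks without a binge, 649 of 17096 genes were higher (3.8%) and 1501 lower (8.78%) in the multi-binge livers. Against the single binge, 932 of 17166 were higher (5.43%) and 1885 lower (11%). Mt1 was 4.34 above the ethanol-fed livers (adjusted p = 0.000407), whose 5 arrays lay between -4.77 and -3.59. It was 1.79 below the single-binge livers (adjusted p = 0.0353), whose 5 arrays lay between 0.79 and 2.88. Mt2 was 3.69 above the ethanol-fed livers and 1.62 below the single-binge livers (adjusted p = 0.0444). The mean of the 2 multi-binge samples lay between these groups for both genes. Sample 1 lay within the range of the single-binge arrays (0.68 to 2.13 for Mt2), and sample 2 below it.

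Metallothionein genes are known to be switched on by the metal-sensing factor encoded by Mtf1, which binds metal response elements. Of the 10 members of the list of metallothioneins and zinc transporters, 2 rose, both in the strict count, and none fell. The median difference of the list was 0.18, against -0.01 over all genes. The promoters of both genes are shown because both rose together. They are 300 bases long, span the start of the gene and come from RefSeq on GRCm38.p6, and capitals mark the element core TGCGCNC or TGCACNC on either strand. The promoter of Mt1 lies at chr8:94178839-94179138 on the plus strand and that of Mt2 at chr8:94172368-94172667 on the plus strand.
Mt1: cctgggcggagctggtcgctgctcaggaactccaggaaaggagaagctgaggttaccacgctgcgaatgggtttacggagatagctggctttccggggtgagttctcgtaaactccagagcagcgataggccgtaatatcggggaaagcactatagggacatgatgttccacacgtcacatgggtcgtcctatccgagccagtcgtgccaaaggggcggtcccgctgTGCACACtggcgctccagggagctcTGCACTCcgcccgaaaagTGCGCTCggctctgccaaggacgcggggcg
Mt2: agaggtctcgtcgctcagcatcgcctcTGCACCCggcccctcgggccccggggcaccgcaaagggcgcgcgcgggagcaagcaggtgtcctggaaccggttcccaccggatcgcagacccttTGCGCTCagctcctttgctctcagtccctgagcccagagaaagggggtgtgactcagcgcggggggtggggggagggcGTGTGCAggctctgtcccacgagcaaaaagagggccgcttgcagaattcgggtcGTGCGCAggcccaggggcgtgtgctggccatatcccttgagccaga
The Mt1 promoter held 3 matches and the Mt2 promoter 4. A match of either core was found in 25.7% of 32851 promoters of the same length, TGCGCNC in 15.4% and TGCACNC in 12.6%. A match is a description of the letters, not of a bound site. The promoters of Gstm1 and Gstm3, which also rose, were searched for the antioxidant response element core TGACNNNGC. They held no match, and 12.4% of all promoters held 1 or more.

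Of 16 tested members of the antioxidant and glutathione list, 4 rose and none fell, and the list's median was 0.37 in the ratio, 0.91 in Cy5 and 0.27 in Cy3. Gstm1 and Gstm3 encode mu-class transferases, which join glutathione to electrophiles. Gstm1 had ratios of -1.02, -2.05, -2.16 and -1.41 in pair-fed livers and of 1.42, 1.21, 1.54 and 0.76 on the multi-binge arrays. The groups did not overlap, and both multi-binge samples were high. The difference was 2.89 ± 0.49 (SE, n = 2 and 4, adjusted p = 0.00214), 1.62 in Cy5 and -1.09 in Cy3 (adjusted p = 0.00418), so Cy3 added to the ratio. Gstm1 passed without sample 1 (2.65, adjusted p = 0.0435) and without sample 2 (3.14, adjusted p = 0.0163), and it was 1.78 above ethanol without a binge (adjusted p = 0.0192).

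Gstm3 was measured on pair-fed arrays 2 and 3, at -2.62 and -3.06, and was 1.32, 0.03, 1.51 and 0.21 on the multi-binge arrays. It was 3.61 ± 0.74 higher (SE, n = 2 and 2, adjusted p = 0.00767), 3.96 higher in Cy5 and 0.39 higher in Cy3, which was no call, and it passed without sample 2 but not without sample 1. Gstp1, a pi-class transferase, rose by 1.14 ± 0.35 (SE, n = 2 and 3, adjusted p = 0.0454). Gsta4, which handles products of lipid peroxidation, rose by 0.46 in the ratio (adjusted p = 0.0396), with 1.47 in Cy5 and 0.93 in Cy3. Neither Gstp1 nor Gsta4 passed without sample 1 or without sample 2. Gsta2 had a ratio difference of 1.77 (adjusted p = 0.148), from 5.48 in Cy5 and 3.76 in Cy3. Nqo1, a quinone reductase, had 0.93 (adjusted p = 0.067), from 3.26 and 2.34. These are among the genes with the largest Cy3 differences, so their large Cy5 values do not describe the livers alone.

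The list of xenobiotic cytochromes P450 and receptors had the highest median among those described, 1.24 in the ratio. Its medians were 2.05 in Cy5 and 0.66 in Cy3, and its tested members include Nr1i3 and Por, which are not cytochromes. Of 10 tested members 4 rose and none fell, and the ratio difference of all 10 was above 0. Cyp2c29 had ratios of -1.71, -1.09 and -1.08 on 3 pair-fed arrays and of 1.19, 0.61, 1.07 and 0.52 on the multi-binge arrays. The groups did not overlap, while the 5 ethanol-fed arrays lay between -0.41 and 1.07, overlapping the multi-binge values. Cyp2c29 rose by 2.14 ± 0.37 (SE, n = 2 and 3, adjusted p = 0.00375) against pair-fed livers, with 1.62 in Cy5 and -0.07 in Cy3. Against ethanol without a binge it differed by 0.46 (adjusted p = 0.418), and against the single binge by 1.08 (adjusted p = 0.0444).

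Cyp2a5, a coumarin hydroxylase, lay at -0.95, -1.16 and -1.45 on 3 pair-fed arrays and at 1.14, 0.64, 1.12 and 0.58 on the multi-binge arrays. It rose by 2.06 ± 0.59 (SE, n = 2 and 3, adjusted p = 0.034), with 2.48 in Cy5 and 0.62 in Cy3, which was no call. Its near copy Cyp2a4 had 1.81 (n = 2 and 3, adjusted p = 0.0537), and the probes may share transcripts. Cyp2b13 rose by 1.97 ± 0.49 (adjusted p = 0.0171) and Cyp3a16 by 1.25 ± 0.24 (n = 2 and 3, adjusted p = 0.0072), but both were also called higher in Cy3, by 1.95 and 1.84. Of these cytochromes, Cyp2c29 passed without sample 2 (2.42, adjusted p = 0.0163), and none of Cyp2c29, Cyp2a5, Cyp2b13 and Cyp3a16 passed without sample 1. Cyp2a5 did not pass without pair-fed replicate 2 (adjusted p = 0.0786) or 3 (adjusted p = 0.0892), or with the scanner software's own ratio (adjusted p = 0.0836).

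Genes of bile acid synthesis and transport gave 3 rises and no fall among 10 tested, with a median of 0.30. Cyp39a1, an oxysterol hydroxylase of bile acid synthesis, had ratios of -2.32, -1.25, -1.89 and -1.44 in pair-fed livers. It was measured on multi-binge arrays 3 and 4, at 0.24 and 0.10, which lay above all pair-fed values. It rose by 1.89 ± 0.32 (SE, n = 2 and 4, adjusted p = 0.0021), with 2.20 in Cy5 and 0.10 in Cy3, and passed without sample 1 (1.83, adjusted p = 0.0392) and without sample 2 (1.96, adjusted p = 0.0194). Against ethanol without a binge it was 1.09 higher (adjusted p = 0.0252).

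The export pumps Abcc4 and Abcc3, which move bile acids and conjugates from hepatocytes to blood, rose by 1.18 (adjusted p = 0.0123) and 0.81 (adjusted p = 0.0364). Abcc4 was also higher in Cy3, by 1.23, and neither pump passed without sample 1 or without sample 2. Cyp7a1, the rate-limiting enzyme of bile acid synthesis, had ratios of 0.72, 0.71, 0.92 and 1.80 in pair-fed livers. On multi-binge arrays 1, 3 and 4 it had -1.94, -2.19 and 0.56, so that sample 1 was low and sample 2 was not. Its difference of -1.79 ± 0.57 missed the threshold (adjusted p = 0.0504), and its Cy3 was higher by 1.16 (adjusted p = 4.09e-06).

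**Figure D3:**
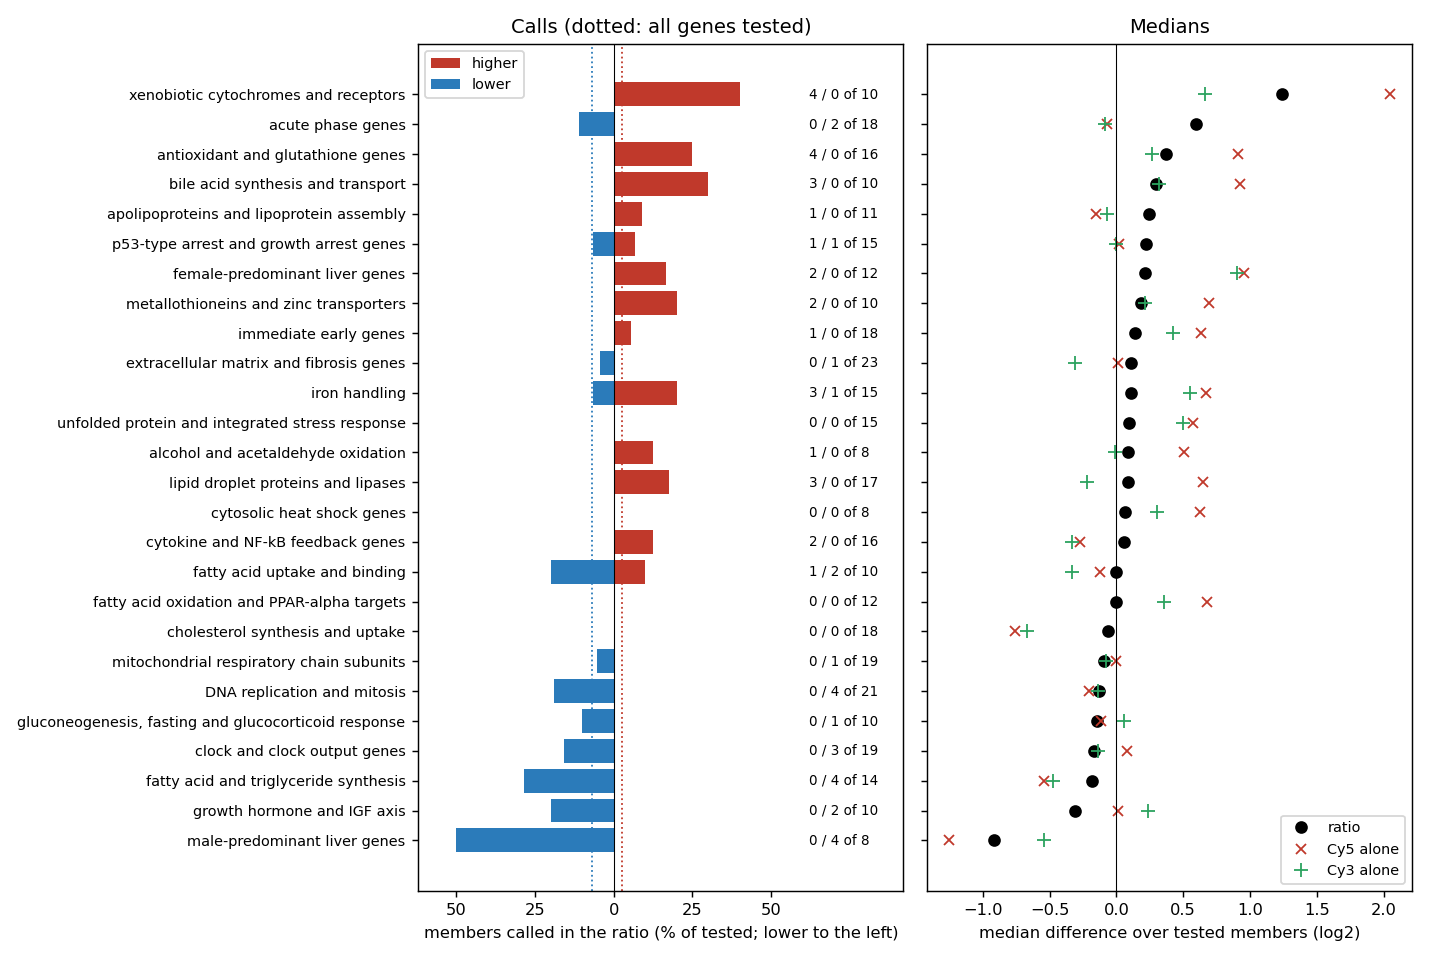
The left panel shows, for each gene list described, the share of tested members called higher (red, to the right) or lower (blue, to the left) in the ratio, with dotted lines at the shares of all genes (2.75% and 6.89%), and the right panel the median difference of the list in the ratio, in Cy5 alone and in Cy3 alone (log2). The xenobiotic cytochromes and receptors have the highest median ratio (1.24) and the male-predominant genes the lowest (-0.92).

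In the list of fatty acid and triglyceride synthesis, 4 of 14 tested genes fell and none rose, 2 of them in the strict count, with a list median of -0.18 in the ratio, -0.54 in Cy5 and -0.48 in Cy3. Thrsp, which promotes lipogenesis, had ratios of 0.30 and 0.00 on the pair-fed arrays where it was measured and of -2.79, -2.15 and -2.50 on multi-binge arrays 2, 3 and 4. Every multi-binge value was low. Thrsp fell by 2.55 ± 0.47 (SE, n = 2 and 2, adjusted p = 0.00468), with -3.47 in Cy5 and -0.25 in Cy3, and passed without sample 1 (-2.79, adjusted p = 0.0355) and without sample 2 (-2.30, adjusted p = 0.0491). Its difference from ethanol without a binge was -2.94 (adjusted p = 0.000857), and that from the single binge was -1.97 (adjusted p = 0.00594).

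Fasn, fatty acid synthase, had ratios of 0.89, 0.67, -0.16 and -0.09 in pair-fed livers and of -1.61, -1.24, -1.56 and -1.13 on the multi-binge arrays. The groups did not overlap. Fasn fell by 1.71 ± 0.52 (SE, n = 2 and 4, adjusted p = 0.044), with -2.70 in Cy5 and -0.99 in Cy3, where it was called too. Another probe of Fasn had -0.78, and the mean of its probes did not pass (-1.69, adjusted p = 0.0595). Nor did Fasn pass with the marked spots kept or with the deposited table. Srebf1, the transcription factor that drives these enzymes, had 0.88, 0.78, 0.46 and 0.58 against -1.17, -0.20, -1.27 and -0.19, and fell by 1.38 ± 0.43 (adjusted p = 0.047), with -3.22 in Cy5 and -1.90 in Cy3. Against the single binge Srebf1 was 1.34 higher (adjusted p = 0.0323).

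Lpin1, a phosphatidate phosphatase of triglyceride synthesis and a transcriptional cofactor, split the multi-binge samples. It had 0.63 and -0.30 on pair-fed arrays 2 and 3, -0.52 and -0.43 in sample 1 and -3.49 and -3.18 in sample 2. Its difference was -2.07 ± 0.62 (SE, n = 2 and 2, adjusted p = 0.0412), and -3.50 without sample 1 (adjusted p = 0.00715). It did not pass without sample 2. Fasn and Srebf1 did not pass without sample 1, without sample 2 or without pair-fed replicate 2 (adjusted p = 0.104 and 0.0979). With the slide as a random block Fasn (adjusted p = 0.0538), Srebf1 (adjusted p = 0.0654) and Lpin1 (adjusted p = 0.0563) missed the threshold.

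Among 17 tested lipid droplet proteins and lipases, 3 rose and none fell, with a median of 0.09. Cidec, to which the title of the study refers, had ratios of -0.73, -2.91, -2.51 and -1.83 in pair-fed livers and of 0.75, -1.24, 0.81 and -1.10 on the multi-binge arrays. Sample 1 lay above all pair-fed livers, and sample 2 lay within their range. The difference of 1.80 ± 0.82 (SE, n = 2 and 4) did not pass (adjusted p = 0.168), nor did that in Cy5 (2.04, adjusted p = 0.0589) or in Cy3 (0.23, adjusted p = 0.684). Against ethanol without a binge Cidec differed by 1.74 (adjusted p = 0.15) and against the single binge by -1.45 (adjusted p = 0.219), neither of which passed.

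Plin4, a perilipin of lipid droplets, had ratios of -0.57, -1.87, -1.93 and -1.70 in pair-fed livers and of 0.04, -0.23, 0.10 and -0.18 on the multi-binge arrays. All multi-binge arrays were above all pair-fed arrays, by the least against pair-fed replicate 1. Plin4 rose by 1.45 ± 0.36 (SE, n = 2 and 4, adjusted p = 0.0168), with 1.04 in Cy5 and -0.49 in Cy3 (adjusted p = 0.0416), and its difference from the single binge was -1.16 (adjusted p = 0.0273). Abhd5, the coactivator of triglyceride lipase, rose by 0.51 (adjusted p = 0.0221, another probe 0.14) with no call in Cy3 (0.04), and Plin3 rose by 0.71 (n = 2 and 3, adjusted p = 0.0265), with 0.93 in Cy3. Plin3 passed without sample 2 (0.96), while Plin4 and Abhd5 lost their calls when either sample was left out.

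Fatty acid uptake and binding genes moved in both directions, with 1 rise and 2 falls among 10 tested. Fabp1, the abundant fatty acid binding protein of hepatocytes, had ratios of 1.39, 1.30, 1.73 and 1.75 in pair-fed livers and of -0.30, 0.71, -0.76 and -0.05 on the multi-binge arrays. The groups did not overlap. Fabp1 fell by 1.64 ± 0.31 (SE, n = 2 and 4, adjusted p = 0.00408), with -1.45 in Cy5 and 0.70 in Cy3, which was called (adjusted p = 0.0396). Fabp2 fell by 0.90 (n = 2 and 3, adjusted p = 0.0306) and Acsl4, an acyl-CoA synthetase, rose by 0.84 (adjusted p = 0.00803), of which 0.08 was in Cy5 and -0.88 in Cy3. Another probe of Acsl4 had -0.17, and the mean of its probes did not pass (0.49, adjusted p = 0.149). Fabp1 (-2.07) and Acsl4 (1.03) passed without sample 2, and none of the 3 genes passed without sample 1.

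Of 11 tested apolipoprotein and lipoprotein assembly genes, 1 rose and none fell, against 2.75% and 6.89% of all genes, with a median of 0.24. It was Apoa2, a protein of high-density lipoprotein, at 0.55 (adjusted p = 0.0234), and Apoc3 had 0.46 (adjusted p = 0.053). Among 10 tested genes of gluconeogenesis and fasting, none rose and 1 fell, against 2.75% and 6.89% of all genes. This was G6pc, the enzyme that releases glucose, with 0.52 and 0.82 on pair-fed arrays 2 and 4 and -2.72, -1.76, -2.79 and -1.75 on the multi-binge arrays. G6pc fell by 2.93 ± 0.61 (SE, n = 2 and 2, adjusted p = 0.00813), with -2.28 in Cy5 and 0.51 in Cy3 (adjusted p = 0.0458), and had -3.43 without sample 2 (adjusted p = 0.0246), but did not pass without sample 1. Fbp1 had -0.50 (n = 2 and 3, adjusted p = 0.0773). No gene of fatty acid oxidation or of cholesterol synthesis and uptake was called by limma. At an unadjusted p under 0.05 there were 5 of 12 and 2 of 18. Of all genes 9.64% passed the adjusted threshold, and the share at the unadjusted 0.05 was not counted, so these counts cannot be set against it.

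Genes of iron handling gave 3 rises and 1 fall among 15 tested, with a median of 0.11. Ftl1 and Fth1 encode the subunits of ferritin, which stores iron. Ftl1 had ratios of 0.24, -0.36, -0.36 and 0.17 in pair-fed livers and of 1.11, 1.04, 1.00 and 0.67 on the multi-binge arrays, with no overlap. It rose by 1.03 ± 0.23 (SE, n = 2 and 4, adjusted p = 0.00934), with 0.67 in Cy5 and -0.01 in Cy3. Fth1 rose by 0.80 (adjusted p = 0.0364), with 1.16 in Cy5 and 0.47 in Cy3, and passed without sample 2 (1.13, adjusted p = 0.0438) but not without sample 1 (0.47, adjusted p = 0.437). Ftl1 passed neither without sample 1 (0.93, adjusted p = 0.117) nor without sample 2 (1.13, adjusted p = 0.0502). With the scanner software's own ratio Ftl1 (0.82, adjusted p = 0.053) and Fth1 (0.72, adjusted p = 0.0946) missed the threshold. Hjv, a coreceptor that raises hepcidin, rose by 0.60 (adjusted p = 0.0423), with 2.37 in Cy5 and 1.72 in Cy3, and passed neither without sample 1 (0.48, adjusted p = 0.329) nor without sample 2 (0.73, adjusted p = 0.105).

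Hamp2, a hepcidin gene of the mouse, had ratios of 0.77, 0.25, 0.26 and 2.16 in pair-fed livers and of -0.81, -1.75, -0.95 and -1.63 on the multi-binge arrays. The groups did not overlap, and pair-fed replicate 4 was high. Hamp2 fell by 2.14 ± 0.50 (SE, n = 2 and 4, adjusted p = 0.0122), with -1.80 in Cy5 and 0.55 in Cy3 (adjusted p = 0.0429), and it passed without sample 1 (-2.55, adjusted p = 0.0483) but not without sample 2 (-1.74, adjusted p = 0.145). It shares sequence with Hamp, which the probe may also read.

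Among 18 tested acute phase genes, none rose and 2 fell, Hamp2 and A2m (-0.77, adjusted p = 0.0418, another probe -0.28), while the list's median was 0.59. Of all genes 2.75% rose and 6.89% fell. Lcn2, a neutrophil and hepatocyte protein that binds iron carriers, had ratios of -3.69, -4.08, -3.14 and -5.88 in pair-fed livers, of 0.22 and 0.20 in sample 1 and of -2.61 and -2.43 in sample 2. Its difference of 3.04 ± 0.98 did not pass (adjusted p = 0.0529). Orm3 had 1.52 (adjusted p = 0.0653). Of 16 tested cytokine and NF-kB feedback genes, 2 rose and none fell. Tnfaip2, a gene induced by tumour necrosis factor, had -0.54, -1.09, -1.32 and -1.36 in pair-fed livers and 0.05, 0.51, 0.23 and 0.67 on the multi-binge arrays, where sample 2 was the higher. It rose by 1.44 ± 0.22 (SE, n = 2 and 4, adjusted p = 0.00119), with 0.76 in Cy5 and -0.79 in Cy3, and passed without sample 1 (1.67, adjusted p = 0.0103) and without sample 2 (1.21, adjusted p = 0.0276). Nfkbiz rose by 0.57 (adjusted p = 0.0472), and Tnfrsf1a had 0.43 (adjusted p = 0.0707).

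Of 8 tested genes of alcohol and acetaldehyde oxidation, 1 rose and none fell, against 2.75% and 6.89% of all genes. With the spots kept that the scanner software marked, 12 were tested. Of these 1 rose and 2 fell, against 2.73% and 6.77% of all genes. Adh5, tested only in that fit, differed by -0.48 (adjusted p = 0.0227), with 0.47 in Cy5 and 0.88 in Cy3. Adh1, the main alcohol dehydrogenase of the liver, had ratios of -0.27, -0.34 and -0.13 on 3 pair-fed arrays and of 0.53, 0.62, 0.61 and 0.46 on the multi-binge arrays. It rose by 0.80 ± 0.21 (SE, n = 2 and 3, adjusted p = 0.0234), with 0.22 in Cy5 and -0.18 in Cy3, neither of which was called. Adh7 had 0.62 (adjusted p = 0.0672). Adh1 did not pass without sample 1, without sample 2 or without pair-fed replicate 2 (adjusted p = 0.0634), and with the scanner software's own ratio it had 0.48 (adjusted p = 0.223).

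The 2 multi-binge samples differed from each other in named groups of genes. Over all 17012 genes, 91 were over 2-fold higher in sample 1 and 42 in sample 2, 0.782% together, with a median difference of -0.002. Among 18 immediate early genes, which encode transcription factors that answer stress within minutes to hours, 8 (44.4%) were over 2-fold higher in sample 1, with a median of 0.91. Among 15 p53-type and growth arrest genes 6 (40%) were, with a median of 0.41, among 10 metallothionein and zinc genes 3 (30%), among 15 genes of the unfolded protein response 3 (20%) and among 16 antioxidant genes 3 (18.8%). None of the 10 tested members of the list of xenobiotic cytochromes and receptors differed over 2-fold between the samples. These are descriptions of 2 samples, with no test, and the genes below were chosen after their values were seen.

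Klf6 had 0.86 in sample 1 and -1.53 in sample 2, Atf3 0.69 and -1.44 and Maff 0.50 and -1.59. The growth arrest gene Cdkn1a had 0.44 and -2.51, Trp53inp1 0.41 and -1.94 and Gdf15 0.71 and -1.18. Hmox1, which degrades heme, had 0.81 and -2.19, and Chac1, which degrades glutathione, had 0.61 and -1.93. Against the pair-fed mean, sample 1 was higher and sample 2 lower for Klf6 (1.58 and -0.81), Atf3 (1.20 and -0.93), Maff (0.67 and -1.42), Chac1 (1.11 and -1.43) and Hmox1 (1.08 and -1.92). For these genes the mean of the group describes neither sample.

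Cdkn1a lay 3.41 and 0.47 above the pair-fed mean in samples 1 and 2, where sample 2 (-2.51) was within the range of the pair-fed arrays (-3.37 to -2.33). Its difference of 1.94 ± 0.62 did not pass (adjusted p = 0.0515). It was 2.18 above ethanol without a binge (adjusted p = 0.0217), and its difference from the single binge was -2.23 (adjusted p = 0.0153). Egr1, an immediate early factor, had -1.87, -2.33, -2.57 and -2.71 in pair-fed livers and 0.35, -0.98, 0.37 and -0.96 on the multi-binge arrays. It was the 1 of 18 immediate early genes that rose, by 2.06 ± 0.53 (SE, n = 2 and 4, adjusted p = 0.0198), with 3.48 in Cy5 and 1.24 in Cy3, and it passed without sample 2 but not without sample 1. Of 15 p53-type genes, Gadd45b rose (0.76, adjusted p = 0.0299) and Gadd45a fell (-0.69, adjusted p = 0.0392), and Gadd45b had 1.31 without sample 2 (adjusted p = 0.00454) but 0.21 without sample 1 (adjusted p = 0.672). Another probe of Gadd45b had 0.08, and the mean of its probes did not pass (0.42, adjusted p = 0.217). Gadd45a passed neither without sample 1 (-0.99, adjusted p = 0.0547) nor without sample 2 (-0.40, adjusted p = 0.416). No gene of the unfolded protein response or of the cytosolic heat shock response was called by limma, and at an unadjusted p under 0.05 there were 1 of 15 and 0 of 8. The share of all genes at the unadjusted 0.05 was not counted, while 9.64% of all genes passed the adjusted threshold.

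**Figure D4:**
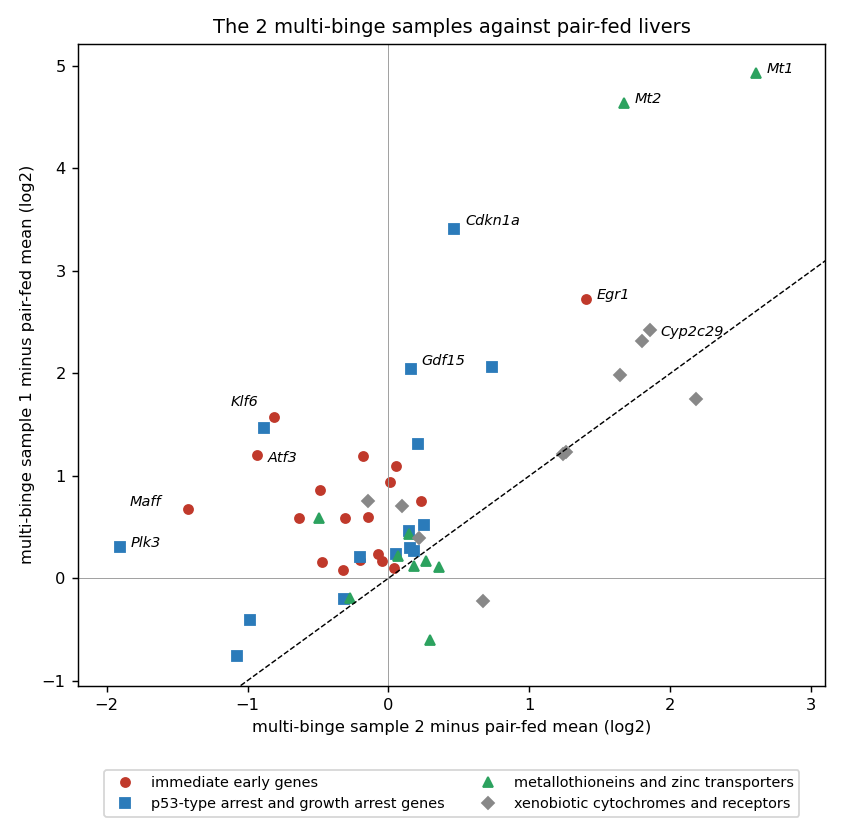
The plot shows, for the members of 4 gene lists, the difference of multi-binge sample 1 from the pair-fed mean (vertical axis, log2) against that of sample 2 (horizontal axis, log2), with a dashed line where both are equal. Cdkn1a (3.41 and 0.47), Mt1 (4.93 and 2.61) and Klf6 (1.58 and -0.81) lie above the line, and the xenobiotic cytochromes and receptors lie near it.

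Of 8 tested genes known to be higher in male than in female liver, none rose and 4 fell, and the median was -0.92, with -1.25 in Cy5 and -0.54 in Cy3. None of the falls was in the strict count. Hsd3b5, a steroid dehydrogenase of male liver, had 0.54, 1.65, 1.16 and 0.67 in pair-fed livers and -1.92, -1.94, -2.01 and -1.27 on the multi-binge arrays, with no overlap. It fell by 2.79 ± 0.78 (SE, n = 2 and 4, adjusted p = 0.0282), with -4.80 in Cy5 and -2.32 in Cy3. C6, a complement component, fell by 1.69 (n = 2 and 2, adjusted p = 0.0151), Mup3, a urinary pheromone carrier, by 0.84 (adjusted p = 0.0186) and Cyp4a12a by 0.83 (n = 2 and 2, adjusted p = 0.0476). Mup3 belongs to a family of near-identical genes, so its probe may read several, and its Cy5 rose by 0.74 while Cy3 rose by 1.68. C6, Mup3 and Cyp4a12a passed without sample 2, and none of the 4 genes passed without sample 1.

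Of 12 tested female-predominant genes, 2 rose, Cyp2b13 and Cyp3a16, and none fell, with a median of 0.22 and 8 of 12 called higher in Cy3. Of 10 tested genes of the growth hormone and IGF axis, Stat5b (-0.53, adjusted p = 0.0198) and Igfbp3 (-0.45, adjusted p = 0.0299) fell and none rose. Stat5b encodes the factor through which growth hormone acts in liver, and its Cy5 differed by 0.02. The part of the scan in this was not tested. Another probe of Stat5b had -0.08, and the mean of its probes did not pass (-0.30, adjusted p = 0.107).

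Of 19 tested clock genes, 3 fell and none rose, with a median of -0.17. Tef, a factor under clock control, fell by 0.83 (adjusted p = 0.00472), with 0.67 in Cy5 and 1.48 in Cy3, while its other probes had -0.18 and -0.19 and the mean of its probes did not pass (-0.40, adjusted p = 0.234). Per2 fell by 0.38 (adjusted p = 0.0312) and Ciart by 0.59 (adjusted p = 0.0487, but 0.67 in Cy5 alone), and Dbp had -1.04 (adjusted p = 0.0668). The labels give no hour of collection. Of 21 tested genes of DNA replication and mitosis, 4 fell and none rose, with a median of -0.13. These were Rrm2, a subunit of ribonucleotide reductase (-0.74, adjusted p = 0.00738), Tyms (-0.48, adjusted p = 0.00934), Cdc20 (-0.62, adjusted p = 0.0221) and Birc5 (-0.43, n = 2 and 3, adjusted p = 0.0457). Rrm2 was higher in Cy5 (0.78) and in Cy3 (1.54). Without sample 1, Rrm2 (-0.92), Cdc20 (-0.87) and Ciart (-1.10) passed, and without sample 2 Tef (-0.99) did. Of 23 tested extracellular matrix genes, 1 fell, a share below that of all genes (6.89%), and none rose. It was Col3a1 (-0.79, n = 2 and 3, adjusted p = 0.035), another probe of which had 0.17, and the mean of its probes did not pass (-0.14, adjusted p = 0.682). It passed neither without sample 1 (-1.03, adjusted p = 0.0681) nor without sample 2 (-0.55, adjusted p = 0.291). Of 19 respiratory chain subunits Atp5a1 fell (-0.41, n = 2 and 3, adjusted p = 0.0248), with 1.38 in Cy5 and 1.74 in Cy3.

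Beyond the lists, the 14 largest rises of the strict count also held Pla2g12a, a secreted phospholipase, which had -1.18, -1.51, -1.42 and -0.98 in pair-fed livers and 0.41, -0.14, 0.50 and -0.03 on the multi-binge arrays. It rose by 1.46 ± 0.19 (SE, n = 2 and 4), had the lowest adjusted p of these rises (0.000568), and passed without sample 1 (1.19, adjusted p = 0.022) and without sample 2 (1.73, adjusted p = 0.00163). The tubulin genes Tubb2a (1.39, n = 2 and 3, adjusted p = 0.011) and Tubb6 (1.08, adjusted p = 0.0262) rose together. Btg3 (1.74, adjusted p = 0.019), Mrap (1.66, adjusted p = 0.0298), Phospho1 (1.32, adjusted p = 0.00395) and the transporter gene Slc16a6 (1.07, adjusted p = 0.00513, another probe 0.02) rose too. All of these except Pla2g12a passed without sample 2 and not without sample 1.

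The 14 largest falls of the strict count were set against the other arrays too. Of them 8 lay on the multi-binge arrays outside the range of all 20 other arrays, and 0 of the 14 largest rises did. Low values were also the more frequent over all 17012 genes tested, of which 513 lay below that range and 108 above it. Rabgap1 had 1.20, 1.20, 1.33 and 0.81 in pair-fed livers and -0.16, -0.34 and -0.42 on multi-binge arrays 2, 3 and 4, and fell by 1.45 (adjusted p = 0.000913). Rabgap1, Hars2 (-1.51, adjusted p = 0.00236) and Eef2k (-1.42) passed without sample 1 and without sample 2. Cfd, which encodes adipsin, fell by 2.21 (adjusted p = 0.0171), from between -0.62 and 1.08 in pair-fed livers to between -2.29 and -1.54. Tcp11x2 (-1.68), Nin (-1.50), Kcne1 (-1.46) and Slfn14 (-1.44) were the others outside the range. Creb1, the factor that answers cyclic AMP, fell by 1.56 (adjusted p = 0.00395), Etnppl by 1.54 (adjusted p = 0.0143) and Asxl3 by 1.44, and these lay within the range of the other arrays. Other probes of some of these genes gave smaller falls or none, with 0.05 and 0.11 for Creb1, -0.03 and 0.10 for Rabgap1, 0.08 and -0.35 for Eef2k, 0.29 for Kcne1 and -0.25 for Asxl3. The mean of the probes still passed for Creb1 (-0.47, adjusted p = 0.0218), Rabgap1 (-0.44, adjusted p = 0.0133), Eef2k (-0.56, adjusted p = 0.0179) and Asxl3 (-0.84, adjusted p = 0.0103), and not for Kcne1 (-0.59, adjusted p = 0.0553). The part of the scan and of the grid version in these falls was not tested.

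Of the 280 genes whose ratio call came with an opposite call in the reference and none in Cy5, the 5 largest were Cldn14 (1.92, Cy3 -0.98), Gys2 (-1.40, Cy3 1.81), Hdac9 (-1.37, Cy3 0.82), Lars2 (1.35, Cy3 -0.93) and Ulk1 (-1.32, Cy3 1.78). Gys2 encodes the glycogen synthase of liver and Ulk1 a kinase that starts autophagy. For these 5 genes the difference was called in Cy3 and not in Cy5. Since Cy5 and Cy3 followed each other across genes, liver and reference cannot be told apart here, and the source was not tested. The other probes of Hdac9 had -0.19, -0.06 and 0.11.

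Markers of liver cell types were summed up on each array as the mean of their log2 ratios. Single calls among them are to be read beside the 2.75% of all genes called higher and the 6.89% called lower. In RNA of whole liver, fewer cells of a type and less RNA per cell cannot be told apart. Hepatocyte markers were mixed, with Apoa2 higher and Asgr1 (-0.52, adjusted p = 0.0043) lower among 6 tested, and Asgr1 was higher in Cy5 (0.88) and in Cy3 (1.35). Neutrophil markers ranged from -0.99 to -0.61 on the pair-fed arrays and from -0.55 to -0.11 on the multi-binge arrays, and all 11 on the array were well above background on every multi-binge array, and 10 on every pair-fed array. This mean includes Lcn2, and without it the ranges were -0.30 to -0.12 and -0.28 to -0.14. Of the 10 tested, Retnlg fell (-0.85, adjusted p = 0.0387, but 0.42 in Cy5 alone), and none rose. Erythroid markers ranged from -0.20 to 0.05 and from -0.48 to -0.18, and Alas2, the heme synthesis enzyme of red cells, fell by 1.16 (adjusted p = 0.00732) and Klf1 by 0.73 (adjusted p = 0.0103). Of the 7 erythroid markers tested, 3 differences were above 0 and 4 below, with a median of -0.02, so not all of them fell. Adipocyte markers, which include Cfd, ranged from -0.09 to 0.25 and from -0.58 to -0.36, and without Cfd from -0.08 to 0.16 and from -0.24 to -0.07.

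Of the endothelial markers, Lyve1, a hyaluronan receptor of liver sinusoids, rose by 1.40 (adjusted p = 0.00842), from -1.36, -1.01, -1.75 and -1.70 to 0.22, -0.35, 0.28 and -0.35, while Pecam1 fell by 0.40 (adjusted p = 0.0391). The endothelial markers as a whole ranged from -0.16 to -0.04 and from -0.11 to 0.14. Of the 12 tested, which include Lyve1, 7 differences were above 0 and 5 below, with a median of 0.06. Csf1r (-0.40, adjusted p = 0.027) was the 1 of 10 Kupffer cell markers called, Itgam (-0.96, adjusted p = 0.0107) the 1 of 8 of monocytes, Nkg7 (0.74, adjusted p = 0.0177, but -1.30 in Cy5 alone) the 1 of 11 of T and NK cells, Cd79a (-1.21, adjusted p = 0.01) the 1 of 8 of B cells and Reln (-0.69, adjusted p = 0.0104) the 1 of 9 of stellate cells. Other probes of Csf1r had -0.61 and 0.06, and another of Itgam had 0.23. Kupffer cell markers ranged from -0.24 to 0.35 and from -0.10 to 0.28, and those of T and NK cells from -0.38 to -0.13 and from -0.21 to -0.03. In log2 Cy5 alone the T and NK cell markers went the other way, from 8.03 to 8.69 on pair-fed and 7.47 to 7.80 on multi-binge arrays. Of the 11 tested, 5 were called lower in Cy5 and 6 in Cy3, and none higher in either. The part of changed cell numbers in the gene results was not tested.

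Bright genes were often missing from the test. With the spots kept that the scanner software marked as uneven or outlying, 897 more genes could be tested, of which 814 (90.75%) were in the brightest 25% in Cy5. In that fit 489 genes were higher (2.73%) and 1212 lower (6.77%). Of 17 xenobiotic cytochromes and receptors 8 rose and none fell, with a median of 1.15, in the list of lipid synthesis 6 of 21 genes fell and none rose, with a median of -0.69, and of 23 antioxidant genes 6 rose and none fell, with a median of 0.46. Of 22 genes of fatty acid oxidation 2 fell and none rose, and of 30 respiratory chain subunits 3 fell and none rose. The following were chosen after their values were seen. Cyp2b10, the classic target of the receptor encoded by Nr1i3, was 3.62 ± 0.65 higher (adjusted p = 0.0029), from 7.46 in Cy5 and 3.66 in Cy3. Acly, which makes acetyl-CoA for lipogenesis, was lower (adjusted p = 0.0298), by 3.14 in Cy5 and 1.03 in Cy3, and Lbp, the lipopolysaccharide binding protein, was 1.46 ± 0.23 higher (adjusted p = 0.0015), with 1.73 in Cy5 and 0.25 in Cy3, which was no call.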

How the data were processed

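RNA of mouse livers was hybridized with a reference RNA on 24 Agilent 2-colour arrays. Per the submitters' processing notes, spots were read with Agilent Feature Extraction 11.5.1.1. Per the file headers, the deposited files hold median spot and background intensities in both channels and log10 ratios of Cy5 over Cy3. The log2 ratios of the deposited table were an alternative.

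Median intensities were corrected with normexp (offset 50) and normalized by loess within arrays, without scaling between arrays, in limma 3.58.1 (R 4.3.3, statmod 1.5.0, version 1.17.8 of data.table). Cy5 and Cy3 alone were quantile-normalized. Spots marked as uneven or outlying in either channel, 1.34% to 7.64% of an array, were left out, and 0 spots were saturated. Of 41174 probes, 36618 passed the filter of a Cy5 signal well above background on 3 or more arrays (70.7% to 86.8% of probes per array). Accessions gave names for 26166, and 1 probe stood for each of 17909 genes. It was the brightest, where probes measured on 2 or more arrays of every group were taken first. Probes without a name are not analysed here.

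The design set 4 multi-binge samples. Since their arrays formed 2 pairs within noise, averaging the pairs was decided after the data were seen, which left 22 samples. One fit of 6 group means gave every comparison, and genes were called at a Benjamini-Hochberg adjusted p under 0.05 when measured in at least 2 samples of each group (an averaged pair needs 1 array). The number of arrays limits the precision. Genes named by size are the 14 largest rises and 14 largest falls called in the ratio and in Cy5 but not in Cy3 and well above background in the higher group. The 5 largest called in the ratio and, with the opposite sign, in Cy3 but not in Cy5 are named too. From each list up to 4 members that passed and up to 2 that did not are named, and Cidec always. The results of some genes are not reported here. The members and lists were chosen with earlier results of these data known. Promoter sequences are RefSeq's (GRCm38.p6). The fit was checked on simulated data.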

Additional observations from a re-analysis of the deposited data

Results flagged for a closer look

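In the pair-fed group, 1 of 4 samples stood apart from the other 3 for 7 of 78 genes checked. The measure was the gap to the nearest value over the whole range. Chance alone flags about 1 in 20 such groups. Pair-fed replicate 1 was at -0.62 for Abhd5, against -0.43 to -0.41 in the other samples. It was at -0.74 for Mrap, against -2.16 to -2.04, and at 0.073 for Tcp11x2, against 1.00 to 1.11. Pair-fed replicate 2 was at 0.57 for Apoa2, against 0.80 to 0.84. Pair-fed replicate 4 was at 0.81 for Alas2, against 0.48 to 0.53, at 0.45 for Apoc3, against 0.21 to 0.24, and at 0.007 for Itgam, against 0.35 to 0.38.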

How the results depend on the processing

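Leaving out 1 array or 1 sample gave 39 to 599 higher and 226 to 1416 lower genes in the ratio, 10 to 151 and 52 to 494 in the strict count, 2314 to 3367 and 1463 to 3288 in Cy5 alone, and 2535 to 3362 and 2235 to 3840 in Cy3 alone. The lowest counts of the ratio came without a multi-binge sample. Median centring within arrays gave 704 higher and 1806 lower, with 43 higher in the strict count. The scanner software's ratio gave 994 higher (184 strict), and 1025 genes were higher with the deposited table (180 strict). In Cy5 alone the counts were 3306 and 3029. A fit on only the 8 arrays gave 755 lower (240 strict). Array weights gave 1031 and 1906, with 259 and 638 strict. Aquantile scaling between arrays leaves the ratio as it is. The remaining planned settings (no background subtraction, another offset, marked spots kept, other filters on dim probes, the mean of probes, only the 8-week groups, a variance trend, the slide as a random block) stayed within 1.5 times of every count.

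The fit with 4 separate multi-binge arrays, as the design was first written, gave 1294 higher and 2269 lower, with 286 and 688 strict. It was added after the data were seen, as were leaving out either sample and the next pair of fits. With the slide as a random block on the 4 separate arrays the counts were 1196 and 2217, with 273 and 687 strict. With a replicate block on the 4 separate arrays they were 1351 and 2423, with 297 and 773 strict, and 3423 calls were shared with the fit without the block. Same-numbered arrays of the groups had correlations of their deviations of -0.08, 0.06, -0.25 and 0.21, so the samples share only a number.

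In Cy5 alone the sign turned for Asgr1 (0.88), Atp5a1 (1.38), Ciart (0.67), Gys2 (0.41), Mup3 (0.74), Nkg7 (-1.30), Retnlg (0.42), Rrm2 (0.78), Stat5b (0.017), Tef (0.67) and Ulk1 (0.43). No other setting turned the sign of a gene that was checked. Klf6, Atf3, Maff, Chac1 and Hmox1 were not among the genes checked, and their 2 samples lay on opposite sides of the pair-fed mean. The cause of these changes was not tested. Signal near background limits dim genes, and marked spots limit bright ones.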
